A study of Schizosaccharomyces pombe with 30 samples.

Results

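The regions described are the 2 ends of chromosome III of the fission yeast Schizosaccharomyces pombe, chosen by position alone. From a table of 1500 windows of 300 bp, those within 50 kb of an end were taken, which gave 128 windows, 83 at the left end and 45 at the right end. From a table of 2520 bins of 5 kb, those within 200 kb of an end were taken, which gave 80 bins, 40 at each end. Each value is a number of fragments from chromatin immunoprecipitation with an antibody against histone H3 dimethylated at lysine 9 (H3K9me2). The windows are only those that the authors kept because their signal exceeded the genomic background. The bins cover the whole stretch apart from sequence within 1.5 kb of ura4, in the bin 115001-120000, which the methods exclude.

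H3K9me2 is a mark of heterochromatin in fission yeast, deposited by the methyltransferase Clr4 and bound by the HP1 protein Swi6. Chromosome III differs from the other chromosomes in carrying the ribosomal DNA (rDNA) at its ends. The rDNA consists of tandem repeats in which RNA polymerase I transcribes the 18S, 5.8S and 28S rRNA genes as one precursor, followed by a spacer before the next repeat. Reporter genes placed in fission yeast rDNA are known to be silenced by the heterochromatin machinery.

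H3K9me2 was compared in 5 genotypes that all share one h90 background, named MAT ΔREIII after its altered REIII silencer at the mating type locus, ΔREIII::REIII(Δs1,Δs2). The background also carries fluorescent reporters at cenH, at mat3m and at a euchromatic site. The tables hold 2 libraries of wild-type (replicates B and C) and 2 of clr6-1 (A and B). Per the methods, the authors removed a wild-type and a clr6-1 sample as outliers, after clustering and a check of signal to noise. The spread within these 2 genotypes is thus what remained after that removal. Δfkh2, Δprw1 and clr3-D232N have 3 libraries each, lettered A to C. All came from cultures grown in YES medium at 32°C. Fkh2 is a forkhead transcription factor, Prw1 is a WD-repeat subunit of complexes of the histone deacetylase Clr6, and Clr3 is the deacetylase of the SHREC complex. Both fkh2 and prw1 are deleted, clr6-1 is a hypomorphic allele of an essential gene, and clr3-D232N is a catalytic mutant. Each genotype is represented by 1 strain.

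The RefSeq annotation of ASM294v3, whose lengths of chromosomes I, II and III equal those in the tables, places rRNA genes at both ends. At the left end, on the minus strand, lie 18S genes at 1-1390 (partial), 10419-12260 and 21289-23130, 5.8S genes at 9842-10006 and 20712-20876, and 28S genes at 6057-9541 and 16927-20411. At the right end, on the plus strand, lie an 18S gene at 2440994-2442835, a 5.8S gene at 2443248-2443412, a 28S gene at 2443713-2447197 and a partial 18S gene at 2451883-2452883. One repeat unit was 10870 bases long. The first 13708 bases of the left end were 99.985% identical to the stretch one unit further in. A stretch of 21847 aligned bases that starts inside the left rDNA matched the right end, inverted, at 98.819% identity, and it continued past the rDNA for 8476 bases. Fragments from one copy can therefore be placed in another, and neither windows of different copies nor the 2 ends are independent measurements.

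Of the 128 windows, 126 lay in this repeated sequence: 35 in 28S, 26 in 18S, 2 in 5.8S, 7 in the internal spacers between the rRNA genes, 46 in the long spacer between 28S and the next 18S gene, and 10 at the inner edge of the array. The 2 others lay beyond the array and are called flanking windows. The sequences shown were read from ASM294v3 on the plus strand, and are the window with the highest wild-type mean at each end, both in the long spacer, where the shape of the profile differed between genotypes, and the flanking windows, which held most of the calls. In the first 2 sequences capitals mark bases that differ from the copy at the other end, 1 base in each. The left flanking window has no capitals because it matched the right end at III:2438914-2439213 in all 300 bases. In the right flanking window capitals mark stretches of at least 20 bases that recur exactly 63 bases away within the window.
Left spacer, III:3901-4200: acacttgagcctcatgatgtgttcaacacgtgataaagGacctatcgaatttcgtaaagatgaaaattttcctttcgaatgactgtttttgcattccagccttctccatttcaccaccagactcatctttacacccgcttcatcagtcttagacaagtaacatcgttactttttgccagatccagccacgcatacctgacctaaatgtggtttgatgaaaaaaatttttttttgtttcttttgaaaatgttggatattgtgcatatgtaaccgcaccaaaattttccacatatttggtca
Right spacer, III:2449201-2449500: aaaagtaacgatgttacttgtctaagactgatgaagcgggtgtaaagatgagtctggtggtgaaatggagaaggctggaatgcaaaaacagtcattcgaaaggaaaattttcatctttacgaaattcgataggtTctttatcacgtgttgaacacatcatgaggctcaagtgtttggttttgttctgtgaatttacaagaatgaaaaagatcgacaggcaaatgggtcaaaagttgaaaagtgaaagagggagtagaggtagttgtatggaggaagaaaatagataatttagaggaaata
Left flanking window, III:24901-25200: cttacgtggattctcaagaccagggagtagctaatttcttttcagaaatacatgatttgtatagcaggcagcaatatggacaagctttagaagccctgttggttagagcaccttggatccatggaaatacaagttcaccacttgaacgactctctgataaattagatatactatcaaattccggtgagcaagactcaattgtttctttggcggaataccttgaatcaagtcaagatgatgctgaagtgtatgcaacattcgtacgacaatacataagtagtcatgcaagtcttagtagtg
Right flanking window, III:2430901-2431200: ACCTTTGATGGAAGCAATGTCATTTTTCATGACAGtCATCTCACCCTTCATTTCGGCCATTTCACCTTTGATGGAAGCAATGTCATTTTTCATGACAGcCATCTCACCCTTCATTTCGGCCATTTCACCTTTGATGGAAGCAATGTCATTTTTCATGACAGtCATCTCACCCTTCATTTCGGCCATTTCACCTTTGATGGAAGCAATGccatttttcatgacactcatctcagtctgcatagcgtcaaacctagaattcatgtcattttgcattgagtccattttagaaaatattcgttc
The left spacer window overlaps the non-coding RNA genes SPNCRNA.6666 and SPNCRNA.6667, and the right one overlaps SPNCRNA.1299. The left flanking window is intergenic, between SPNCRNA.1095 (23919-24438) and the protein-coding gene SPCP20C8.01C (28298-29423). The right flanking window lies in the first exon of SPCC569.03 (2430840-2431451, minus strand), entirely in coding sequence. Its inner part lies outside the match with the left end, which stops at 2431086 on the right, and 205 of its 300 bases belong to the recurring stretches.

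Libraries held between 4408669 and 12641248 fragments in the 5 kb bins and between 1253548 and 6622146 in the windows. The share of all bin fragments that fell in bins holding rDNA ranged from 2.05% to 12.8%. Counts were divided by median-of-ratios size factors from the 5 kb bins, which gives the normalised read count. The libraries of a genotype are biological replicates by the methods, and no day or batch is given. Inputs were not analysed here. The number of rDNA copies in a culture and the amount of H3K9me2 per copy cannot be told apart.

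The rRNA genes carried high counts in every genotype, which without inputs do not measure enrichment of H3K9me2. In 28S windows the mean count per base, relative to the median 5 kb bin of the same library, was 33.6 and 19.5 in the wild-type libraries. In Δfkh2 it was 33.0, 24.1 and 71.0, and in Δprw1 it was 50.2, 140 and 31.1. In clr6-1 it was 73.1 and 73.6, and in clr3-D232N it was 51.4, 26.5 and 21.9. The clr6-1 libraries lay close together and above both wild-type libraries. Those of Δprw1 spread widely, and Δfkh2, Δprw1 and clr3-D232N overlapped wild-type.

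Summed over all windows of the left end, normalised read counts were higher than in wild-type by 0.70 on the log2 scale in Δfkh2, 1.31 in Δprw1, 1.68 with clr6-1 and 0.47 with clr3-D232N. On the right the differences were 0.62, 1.26, 1.68 and 0.39. None passed a test: in 2-sided exact permutation tests the p-values were 0.4, 0.2, 0.333 and 0.6 at the left end and 0.4, 0.3, 0.333 and 0.6 at the right end. With 1 library left out at a time, the left difference was between 0.32 and 1.06 in Δfkh2, between 0.71 and 1.76 in Δprw1, between 1.31 and 2.05 with clr6-1 and between 0.10 and 0.84 with clr3-D232N. The right difference was then between 0.25 and 0.99, 0.66 and 1.7, 1.31 and 2.05, and 0.016 and 0.75. The libraries of clr6-1 at both ends and of Δprw1 at the left end did not overlap wild-type. The smallest p that 3 libraries against 2 allow is 0.1, and 2 against 2 allow 0.333. In all, 56 such level comparisons were made, and the smallest Benjamini-Hochberg adjusted p in these exact permutation tests was 0.431.

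Along the repeat unit, the counts of a window relative to 28S in the same library do not depend on the scaling of the library, nor on the number of rDNA copies if copies are alike. The 18S windows held 0.780 and 0.778 times the 28S count in wild-type, and between 0.717 and 0.804 times in the mutants, with all libraries of Δfkh2 and clr3-D232N below both wild-type libraries. Within the long spacer the wild-type libraries had a peak about 2 kb past the 28S gene, and most mutant libraries had a higher and wider one.

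**Figure D1:**
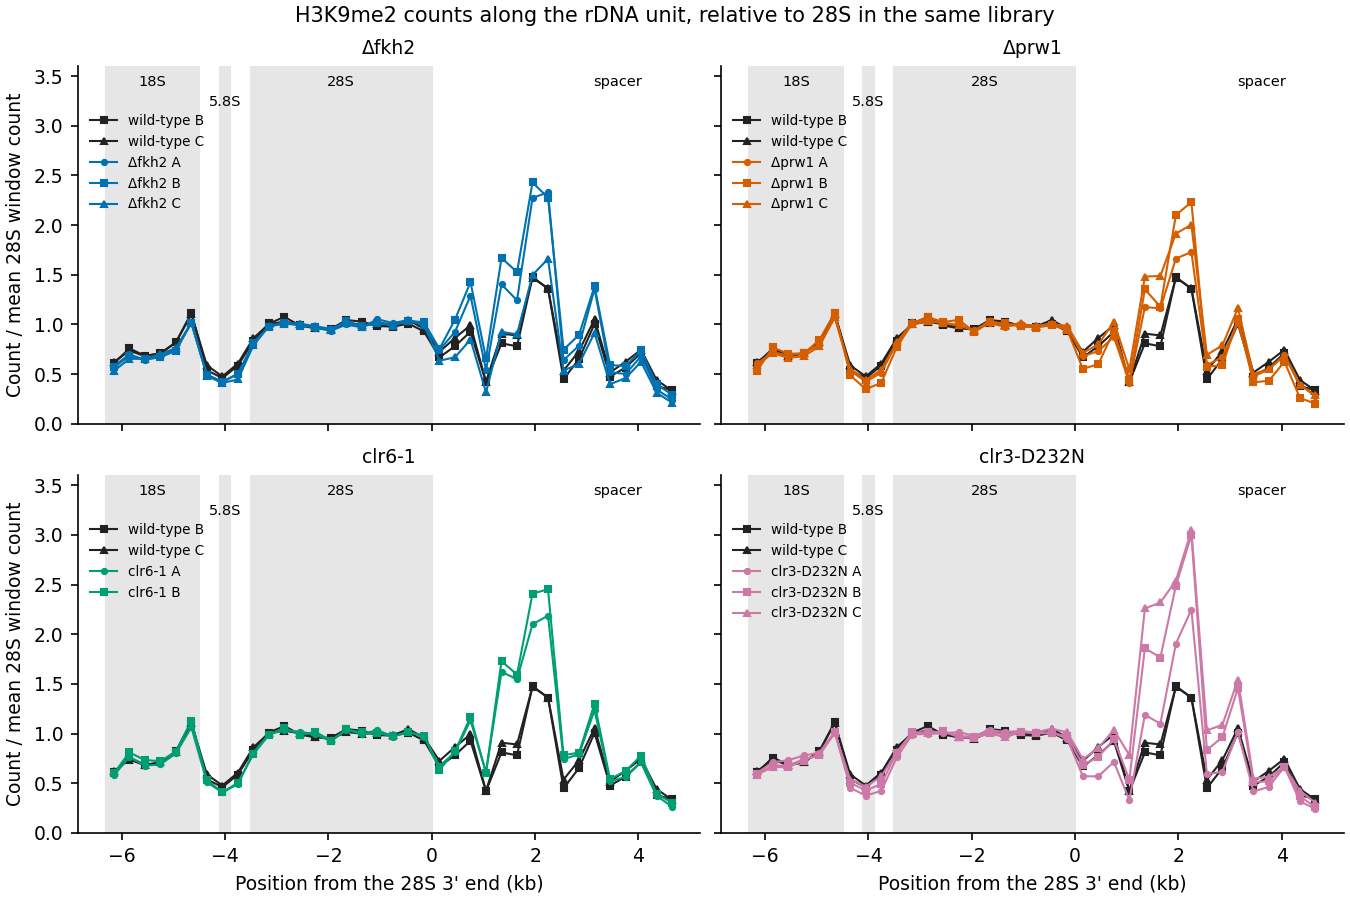
Counts along the rDNA unit, averaged over the copies at both ends in steps of 300 bases and divided by the mean count of the 28S windows of the same library (y axis), against the position in kb from the 3' end of the 28S gene (x axis). Each panel shows 1 mutant (colour) with both wild-type libraries (black), a line for each library, and grey bands mark the rRNA genes. Averaged over 1 to 3 kb in the spacer, the mutant libraries lie above wild-type, and Δfkh2 replicate C stays near it. Single windows of that stretch do not all lie above wild-type.

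In the 20 windows 1 to 3 kb past the 28S gene, the mean count was 0.856 and 0.911 times that of 28S in wild-type. In Δfkh2 it was 1.34, 1.48 and 0.942 times 28S, and in Δprw1 it was 1.08, 1.24 and 1.3 times. The ratio was 1.39 and 1.51 for clr6-1, against 1.18, 1.69 and 1.92 for clr3-D232N. Each of the 11 mutant libraries lay above both wild-type libraries, Δfkh2 replicate C only just. Mean ratios were 1.25 ± 0.28 (SD, n = 3) in Δfkh2, 1.21 ± 0.11 (n = 3) in Δprw1, 1.45 ± 0.083 (n = 2) with clr6-1 and 1.60 ± 0.38 (n = 3) with clr3-D232N, against 0.883 ± 0.039 (n = 2) in wild-type. This stretch was chosen after the profile was seen, so the values are a description without a test.

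In the 26 remaining spacer windows the ratio to 28S was 0.683 and 0.735 in wild-type and between 0.574 and 0.857 in the mutants. There the mutant libraries lay on either side of wild-type: 2 of 3 were above both wild-type libraries in Δfkh2, 0 of 3 in Δprw1, 2 of 2 with clr6-1 and 1 of 3 with clr3-D232N. The mean GC content was 28.8% in the 20 windows, 32.7% in the rest of the spacer, 46.8% in 28S and 44.3% in 18S. The part of base composition in the difference was not tested. With the 18S windows as denominator, the wild-type ratio was 1.13 and the mutant means were between 1.58 and 2.14. At the right end alone, Δfkh2 replicate C (1.00) fell between the wild-type libraries (0.934 and 1.01).

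**Figure D2:**
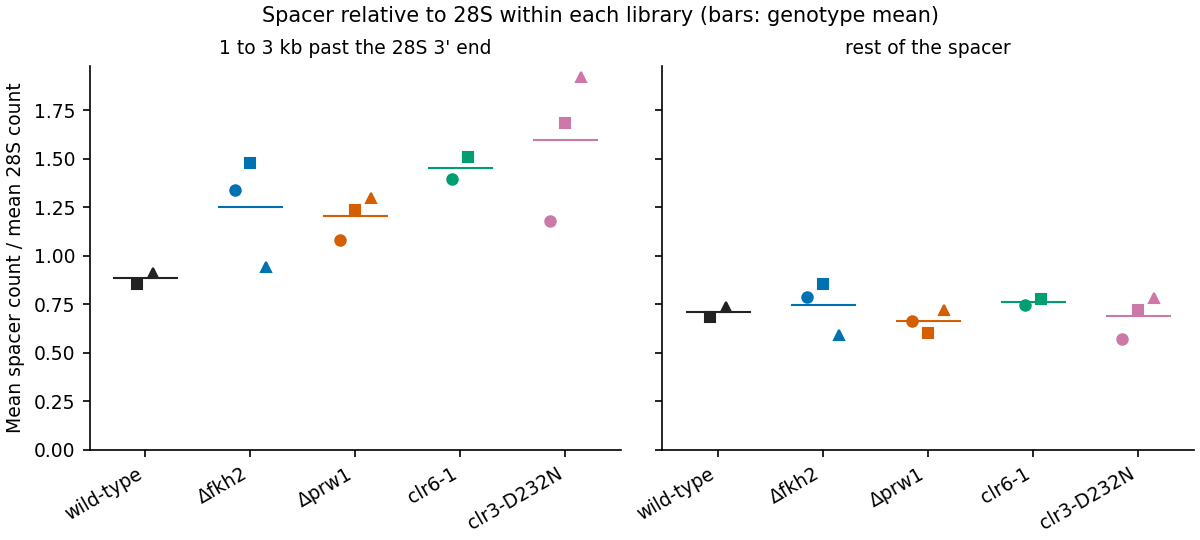
Mean spacer count divided by the mean 28S count of the same library (y axis) for each genotype (x axis), in the windows 1 to 3 kb past the 28S gene (left panel) and in the rest of the spacer (right panel). Each point is a library (circle A, square B, triangle C) and bars are genotype means. In the left panel all mutant libraries lie above wild-type (0.856 and 0.911), whereas in the right panel both clr6-1 libraries lie above wild-type (0.683 and 0.735) and the other mutants overlap it.

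Each window was then compared between mutants and wild-type with the edgeR quasi-likelihood test, fitted on all 1500 windows, with p-values adjusted by Benjamini-Hochberg. A call needed an adjusted p under 0.005 together with a fold change of more than 1 log2 unit in size. Few windows rose anywhere in the genome, and several of these lay at the ends of chromosome III. Of the 128 windows, 2 rose in Δfkh2, where 0.133% of all windows rose. In Δprw1 1 rose (0.0667% of all windows), in clr6-1 4 rose (0.4% of all windows), and in clr3-D232N 2 rose (0.867% of all windows). The 2 and 1 windows in Δfkh2 and Δprw1 were the only ones that rose among the 1500. Of these 9 calls, 7 were of the flanking windows, which were in the table only through the mutants: their wild-type means were 0.570 (left) and 0.747 (right) times the background, taken as the median bin scaled to 300 bases, where the authors required 1.7 times over all libraries. A higher count in mutants was thus built into the choice of these 2 windows, and their calls give no support to a count. All other windows of the ends were at least 3.06 times the background in wild-type, and 2 calls, both in clr6-1, came from them. These counts depend on the scaling: with total counts of the bins as library size, 101 of the 128 windows rose in Δfkh2, 127 in Δprw1, 29 with clr6-1 and 93 with clr3-D232N. The split over all windows was then 146 higher and 373 lower in Δfkh2, 158 and 629 in Δprw1, 31 and 604 with clr6-1, and 295 and 796 with clr3-D232N. That scaling moved the median log2 fold change of all bins to 0.80, 0.69, -0.16 and 1.06, whereas median-of-ratios keeps it near 0.

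No window of the chromosome III ends fell in any mutant, although 36.0% of all windows fell in Δfkh2, 48.3% in Δprw1, 36.4% with clr6-1 and 64.9% with clr3-D232N. The count was also 0 at an unadjusted p below 0.05 and with DESeq2. The median log2 fold change over the 128 windows was 0.65 for Δfkh2, 1.45 for Δprw1, 1.47 for clr6-1 and 0.31 for clr3-D232N, beside -1.38, -1.53, 0.020 and -2.46 over all 1500 windows. The median standard error of a window of these ends was 0.68 to 0.76 on the log2 scale, so that a log2 difference of 1 in a single rDNA window was not detectable with these libraries. At an unadjusted p below 0.05 in edgeR, 2 of the 128 windows were higher in Δfkh2, 93 in Δprw1, 71 with clr6-1 and 3 with clr3-D232N, where 2, 94, 149 and 36 of all 1500 windows were higher. DESeq2 called 2, 12, 15 and 2 of the 128.

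The left flanking window passed the test in all 4 mutants, a direction that the choice of windows above favours. Its normalised read count was 63.3 and 56.6 in wild-type, and 227, 215 and 421 in Δfkh2. In Δprw1 it was 127, 203 and 91.7, with clr6-1 176 and 187, and with clr3-D232N 244, 171 and 131. Every mutant library lay above both wild-type libraries. The log2 fold change was 2.27 ± 0.36 (SE) in Δfkh2 (edgeR adjusted p = 1.97e-08), 1.21 ± 0.36 in Δprw1 (edgeR adjusted p = 0.00149), 1.60 ± 0.39 in clr6-1 (edgeR adjusted p = 0.000118) and 1.60 ± 0.36 in clr3-D232N (edgeR adjusted p = 2.04e-05). The call in Δprw1 was lost with DESeq2 (adjusted p = 0.0107) and without Δprw1 replicate B (log2 fold change 0.87, edgeR adjusted p = 0.0218). It was also lost without wild-type replicate B or C (edgeR adjusted p = 0.0112 and 0.0284), with only Δprw1 and wild-type in the fit (0.00991), and the clr6-1 call was lost without wild-type replicate C (edgeR adjusted p = 0.00527).

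The right flanking window, in SPCC569.03, gave 95.7 and 61.4 in wild-type and 257, 248 and 369 in Δfkh2. It gave 135, 222 and 119 in Δprw1, 279 and 271 with clr6-1, and 203, 165 and 135 with clr3-D232N. Again no mutant library fell to the wild-type values. It passed, with the same reservation, in Δfkh2 (log2 fold change 1.91 ± 0.36, edgeR adjusted p = 1.54e-06), clr6-1 (1.82 ± 0.39, adjusted p = 1.10e-05) and clr3-D232N (1.10 ± 0.35, adjusted p = 0.00292). In Δprw1 the difference was 1.01 ± 0.35 and missed the threshold (edgeR adjusted p = 0.00864). The clr3-D232N call was lost when any one of wild-type replicates B and C and clr3-D232N replicates A and B was left out, with edgeR adjusted p between 0.00503 and 0.1, and with only clr3-D232N and wild-type in the fit (edgeR adjusted p = 0.0209).

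**Figure D3:**
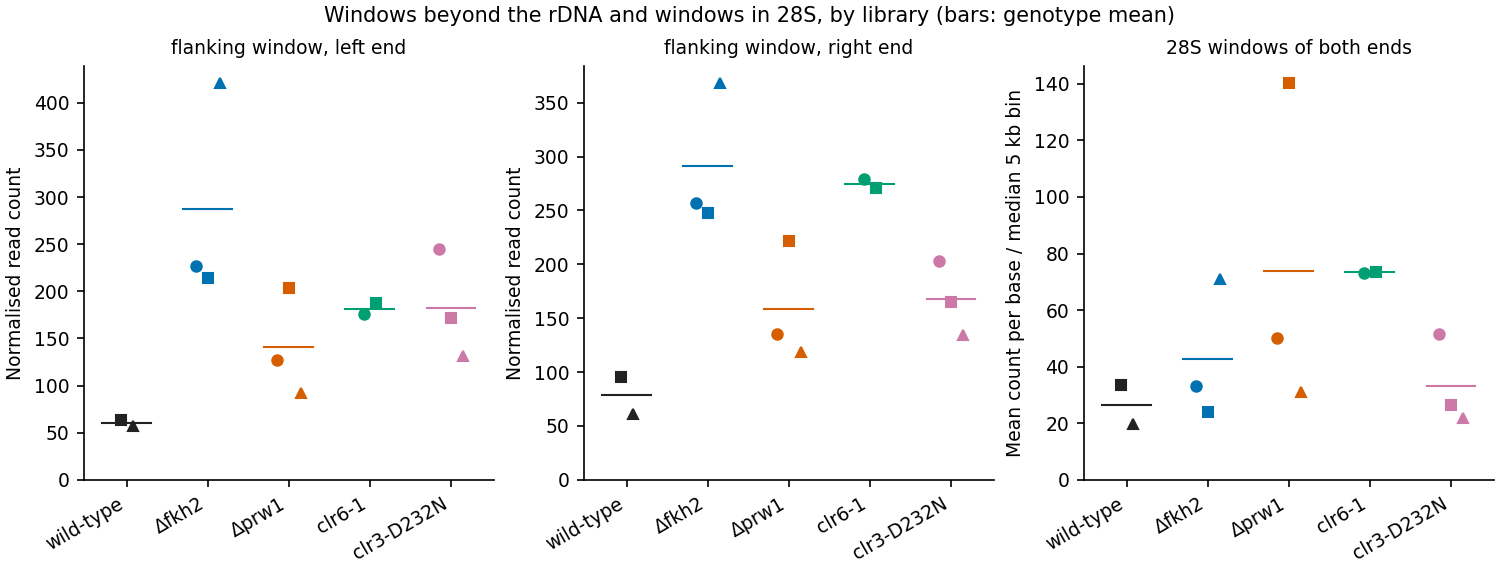
Normalised read count (y axis) of the flanking window of the left end and of the right end in each genotype (x axis), and mean count per base of the 28S windows relative to the median 5 kb bin of the library (right panel). Points are libraries (circle A, square B, triangle C) and bars are genotype means. In both flanking windows, kept in the table only through the mutants, wild-type (56.6 to 95.7) lies below all mutant libraries, while the 28S panel shows overlap except in clr6-1.

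The 2 other windows that rose in clr6-1 lay in the spacer, at III:4801-5100 and III:15601-15900, a little over 1 kb past the 28S gene in neighbouring copies. The first gave 579 and 318 in wild-type and 1926 and 1885 in clr6-1 (log2 fold change 2.09 ± 0.62, edgeR adjusted p = 0.00236). The second gave 1254 and 763 in wild-type and 5217 and 5339 in clr6-1 (2.39 ± 0.75, edgeR adjusted p = 0.00387). Both calls were lost when any single library of clr6-1 or wild-type was left out, with edgeR adjusted p from 0.0154 to 0.0971. The spacer window III:3901-4200, whose sequence is printed above as the highest in wild-type, gave 5769 and 3391 there and 17656 and 20652 in clr6-1, and was not called (2.06 ± 0.85, edgeR adjusted p = 0.0347). In Δprw1 its values were 9805, 34702 and 6752, which is a wide spread within 1 genotype.

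At both ends the largest difference in Δfkh2, and at the left end that in clr3-D232N, was in the flanking window. The largest difference in Δprw1 at the left end was at III:3601-3900 (2.17 ± 0.81) and at the right end at III:2449501-2449800 (2.18 ± 0.77). In clr6-1 the largest were at III:15301-15600 (2.5 ± 0.83) and III:2448601-2448900 (2.48 ± 0.84), and in clr3-D232N the largest at the right end was also at III:2449501-2449800 (1.40 ± 0.74). All of these spacer windows lay 1 to 3 kb past the 28S gene, and none was called. The lowest differences lay in the internal spacers at III:20401-20700 at the left end in all 4 mutants, from -0.073 in clr3-D232N to 1.08 in clr6-1. At the right end the lowest was at III:2442901-2443200 in Δfkh2 (-0.17 ± 0.42), Δprw1 (0.55 ± 0.42) and clr6-1 (0.92 ± 0.46), and at III:2447401-2447700 in clr3-D232N (-0.34 ± 0.65). The internal spacers had the lowest GC content of all classes, 24.1% on average. The highest wild-type means in rRNA genes were 3253 in the 18S gene SPRRNA.44, 3084 in the 28S gene SPRRNA.48 and 2661 in the 5.8S gene SPRRNA.52.

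The 5 kb bins extend the view beyond the array, where only 2 windows had been kept. Levels are given as the count divided by the median bin of the same library, so 1 is the typical level of the genome. In wild-type, bins next to the array lay well below that level and approached it over about 100 kb. The mutant means were higher than wild-type there, and lay between 0.752 and 1.62 in the 3 bins next to the array on each side. Over the first 3 bins beyond the left array (25001-40000) wild-type gave 0.441 and 0.444. The same bins gave 0.744 to 1.52 in Δfkh2, 0.681 to 0.940 in Δprw1, 0.906 to 0.930 with clr6-1 and 0.921 to 0.981 with clr3-D232N. The groups did not overlap.

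On the right (2420001-2435000) the first 3 bins gave 0.513 and 0.519 in wild-type. They gave 1.04 to 1.5 in Δfkh2, 0.767 to 0.975 in Δprw1, 1.18 to 1.28 with clr6-1 and 0.920 to 0.962 with clr3-D232N. In the next 4 bins the wild-type mean was 0.667 on the left and 0.716 on the right, and in the 8 bins after those it was 0.795 and 0.873. The mutant means in these further bins were between 0.939 and 1.09. Stretches of the left end up to position 43064 matched the right end. The search covered the outer 50 kb of each end and kept matches of at least 300 bases. The part of fragment placement in the wild-type level was not tested.

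**Figure D4:**
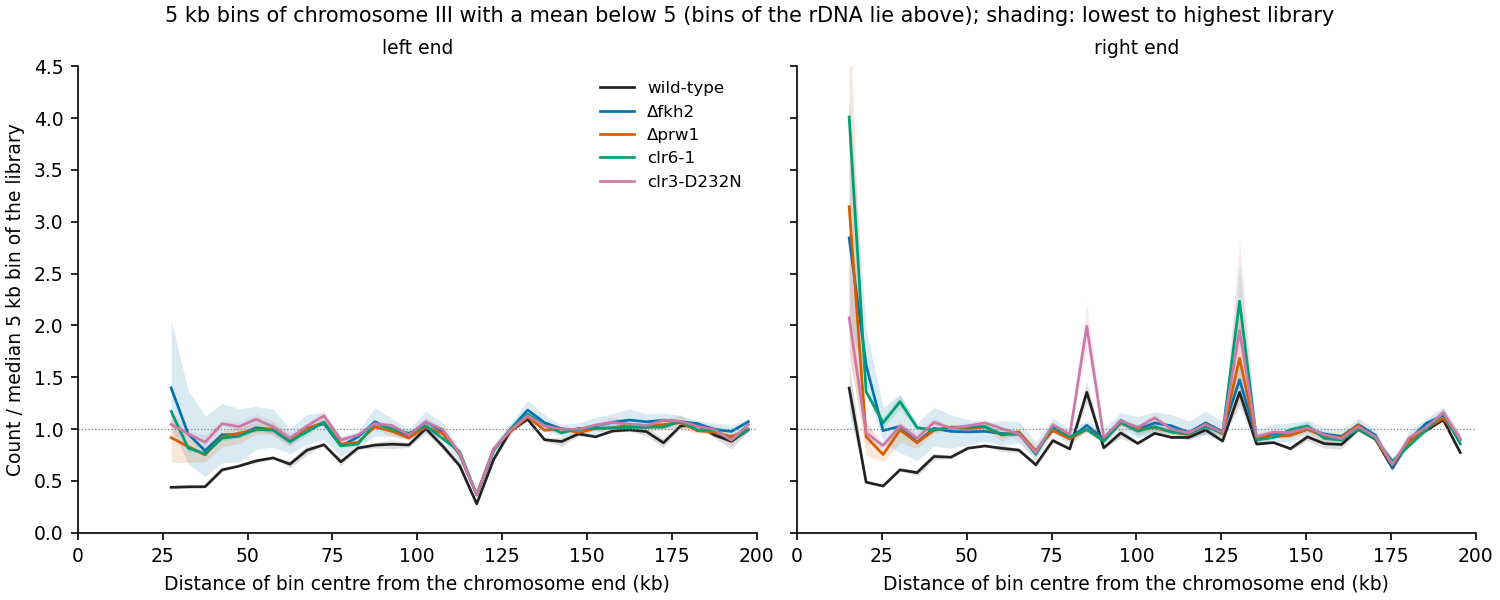
Count of each 5 kb bin divided by the median bin of the library (y axis) against the distance of the bin centre from the chromosome end in kb (x axis), for the left and the right end. Lines are genotype means, shading spans the lowest to the highest library, and bins of the rDNA, whose means exceed 5, are not drawn. The wild-type line starts near 0.44 beside the left array and 0.49 beside the right array and approaches 1 by about 100 kb, below the mutants over most of that distance. The bin nearest the right end that is drawn still contains the edge of the array.

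Within 100 kb of the ends, 32 bins lay wholly beyond the array, 15 on the left and 17 on the right. Every library of the mutant was above both wild-type libraries in 29 of these bins in Δfkh2, where this held for 18% of all 2520 bins. The count was 31 in Δprw1 (21.6% of all bins), 31 with clr6-1 (28.4%) and 32 with clr3-D232N (21.7%). In the whole genome 14 bins had a wild-type mean below 0.6, and 6 of them were among these 32. Fewer template copies and less precipitated chromatin in wild-type cannot be told apart without input counts. The bin of ura4, 115001-120000, outside these 32, was also below 0.6, at 0.279. It was low in every genotype (0.366 to 0.368 in the mutants), and the methods exclude part of its sequence.

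By the edgeR test on all bins, 4 of the 80 bins rose in Δfkh2 (0.159% of all bins), 0 in Δprw1 (0.0% of all bins), 4 with clr6-1 (0.238%) and 2 with clr3-D232N (0.159%). All of them lay beyond the array. None of the 80 fell, where 2.34% of all bins fell in Δfkh2, 4.17% in Δprw1, 3.65% with clr6-1 and 3.89% with clr3-D232N. At an unadjusted p below 0.05, 1, 1, 1 and 0 of the 80 bins were lower and 54, 46, 42 and 50 were higher, where 384, 395, 360 and 406 of all 2520 bins were lower and 369, 377, 306 and 355 were higher. DESeq2 called 4, 1, 4 and 2 bins higher and 0 lower. The median log2 fold change over the 80 bins was 0.22 for Δfkh2, 0.20 for Δprw1, 0.20 for clr6-1 and 0.24 for clr3-D232N, and between -0.0023 and 0.0063 over all bins.

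The bin 25001-30000, which holds SPCP20C8.01C and the non-coding RNA gene SPNCRNA.449, gave 0.456 and 0.422 times the median bin in wild-type. It gave 1.12, 1.02 and 2.05 in Δfkh2, 0.929, 1.15 and 0.679 in Δprw1, 1.17 and 1.17 with clr6-1, and 1.20, 1.02 and 0.922 with clr3-D232N. It rose in Δfkh2 (log2 fold change 1.7 ± 0.28, edgeR adjusted p = 0.000311), clr6-1 (1.43 ± 0.32, adjusted p = 0.00446) and clr3-D232N (1.25 ± 0.28, adjusted p = 0.00336). In Δprw1 it did not pass (1.03 ± 0.29, edgeR adjusted p = 0.0160). These calls rested on few libraries: each was lost without wild-type replicate B and without C, the clr6-1 call also without either clr6-1 library and the clr3-D232N call also without replicate A or B, with edgeR adjusted p between 0.00523 and 0.0448. With the replicate letter as a block the clr6-1 and clr3-D232N calls were lost (edgeR adjusted p = 0.00904 and 0.00523).

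The next bin, 30001-35000, with SPCP20C8.02C and the pseudogene SPCP20C8.03, gave 0.431 and 0.457 in wild-type. It gave 0.825, 0.666 and 1.37 in Δfkh2, and 0.934, 0.985 and 0.948 in clr3-D232N. It rose in Δfkh2 (1.12 ± 0.22, edgeR adjusted p = 0.00166) and clr3-D232N (1.11 ± 0.22, adjusted p = 0.00132). The Δfkh2 call was lost with only Δfkh2 and wild-type in the fit (edgeR adjusted p = 0.00645). Without Δfkh2 replicate C the Δfkh2 difference was 0.75, and both calls were lost without wild-type replicate B or C (edgeR adjusted p from 0.0165 to 0.0256).

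On the right, the bin 2430001-2435000, which holds SPCC569.03, SPCC569.02C and SPCC569.01C, gave 0.493 and 0.484 in wild-type. It gave 1.44, 1.46 and 1.96 in Δfkh2 and 1.39 and 1.33 in clr6-1, against 0.955, 1.08 and 0.750 in Δprw1 and 1.06, 0.964 and 0.865 in clr3-D232N. It rose in Δfkh2 (1.74 ± 0.15, edgeR adjusted p = 4.76e-06) and clr6-1 (1.48 ± 0.17, adjusted p = 1.48e-05). In Δprw1 (0.90 ± 0.16) and clr3-D232N (0.97 ± 0.15) the adjusted p was 0.000306 and 0.000136 in edgeR, but the difference was under the fold threshold.

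The bin 2425001-2430000, with SPCC569.04 and SPCC569.05C, gave 0.443 and 0.459 in wild-type, 0.871, 0.877 and 1.21 in Δfkh2, and 1.11 and 1.01 in clr6-1. It rose in Δfkh2 (1.14 ± 0.12, edgeR adjusted p = 1.27e-05) and clr6-1 (1.24 ± 0.14, adjusted p = 1.42e-05), and without Δfkh2 replicate C the Δfkh2 difference fell under the fold threshold, to 0.96. The bin 2420001-2425000, with SPCC569.06, gave 0.620 and 0.596 in wild-type and 1.33 and 1.20 in clr6-1, and rose in clr6-1 (1.07 ± 0.19, edgeR adjusted p = 0.000424). That call was lost without wild-type replicate C (edgeR adjusted p = 0.00843) and without clr6-1 replicate A (0.0122). In Δfkh2 the same bin differed by 0.78 ± 0.16. With total-count scaling, the clr6-1 calls of these bins were lost (edgeR adjusted p = 0.0588 and 0.119).

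The outermost bins, which consist of rDNA, did not pass. At the left end the terminal bin (1-5000) gave 23.7 and 14.6 times the median bin in wild-type and 67.6 and 73.6 in clr6-1 (1.88 ± 0.73, edgeR adjusted p = 0.101). On the right the terminal piece of 2883 bases gave 12.6 and 7.74 in wild-type and 28.7 and 30.9 in clr6-1 (1.56 ± 0.72, edgeR adjusted p = 0.178). These levels were not adjusted for its shorter length, so they are not comparable with those of the left terminal bin. The bins highest in wild-type were 5001-10000 on the left (30.4 and 17.8) and 2445001-2450000 on the right (32.4 and 19.4).

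Summed by distance, the bins 50 to 100 kb from the left end were higher than in wild-type by 0.32 on the log2 scale in Δfkh2, 0.31 in Δprw1, 0.31 with clr6-1 and 0.38 with clr3-D232N, without overlap with wild-type in any mutant. On the right the differences at that distance were 0.14, 0.12, 0.12 and 0.30. From 100 to 200 kb they were 0.091 to 0.15 on the left and 0.11 to 0.16 on the right. The left sum includes the bin of ura4. The exact permutation p-values were at the limit of the design, 0.1 for Δprw1 and clr3-D232N and 0.333 for clr6-1, and for Δfkh2 they were 0.2 or 0.3.

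The ends were also compared with each other and with other chromosome ends within each library. The summed windows of the left end held 1.80 and 1.81 times the counts of the right end in wild-type, 1.87 to 1.94 times in Δfkh2, 1.84 to 1.90 in Δprw1, 1.81 and 1.81 with clr6-1 and 1.90 to 1.94 with clr3-D232N. The left end has more rDNA windows in the assembly, 77 against 39 by annotation, and the differences from wild-type were at most 0.086 on the log2 scale (exact permutation p = 0.1 for 3 libraries against 2, 0.333 for clr6-1). Relative to the 427 windows within 50 kb of the ends of chromosomes I and II, the chromosome III ends held 0.160 and 0.169 times the counts in wild-type. The ratio was 0.951, 0.314 and 1.69 in Δfkh2 and 2.06, 1.78 and 1.02 in Δprw1. It was 0.549 and 0.557 for clr6-1, and 2.41, 1.31 and 1.02 in clr3-D232N. All mutant libraries exceeded wild-type, by a mean of 2.28, 3.24, 1.75 and 3.17 on the log2 scale, with exact permutation p-values of 0.2, 0.1, 0.333 and 0.1. A lower count at the ends of chromosomes I and II and a higher one at the ends of chromosome III both enter this ratio.

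Between mutants, the same edgeR fit gave 6 comparisons, and 1 window of the 128 was called in 1 of them. The left flanking window was lower in Δprw1 than in Δfkh2 (log2 difference -1.06 ± 0.29, edgeR adjusted p = 0.00177), where 20.3% of all windows were lower. DESeq2 did not call it. The choice of windows favours this direction, since its mean was 2.71 times the background in Δfkh2 and 1.33 times in Δprw1. In the 5 other pairs no window of these ends was called, neither higher nor lower. Of all windows, 0.2% were higher and 0.2% lower in clr6-1 than in Δfkh2, 4.13% and 25.4% in clr3-D232N than in Δfkh2, and 10.7% and 0.0% in clr6-1 than in Δprw1. For clr3-D232N the shares were 7.0% and 3.33% against Δprw1, and 5.67% and 41.2% against clr6-1. At an unadjusted p below 0.05 in edgeR, 7 of the 128 windows were higher and 1 lower in clr6-1 than in Δfkh2 (565 and 137 of all windows), and 0 and 2 in clr3-D232N than in Δfkh2 (88 and 562). There were 1 higher and 0 lower in clr6-1 than in Δprw1 (522 and 0 of all windows). For clr3-D232N there were 0 higher and 20 lower against Δprw1 (152 and 426 of all), and 0 and 37 against clr6-1 (121 and 743 of all). DESeq2 called 4 windows lower in clr3-D232N than in clr6-1 and 0 in the rest.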

How the data were processed

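The authors deposited raw fragment counts per 300 bp window and per 5 kb bin, without normalization. Per the labels and methods, reads were trimmed with Trimmomatic 0.39 and aligned with Bowtie2 2.4.2 (build ASM294v2), properly paired reads were kept, duplicates were removed with Picard 2.25.2, and windows under 1.7 times the background median or near the edited loci were dropped. No mapping quality filter is named, so fragments of identical copies can have been placed in any of them. All per-sample columns were used (0 left unmapped). The 15 inputs and 2 ChIP samples outside the tables were not analysed here.

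Counts of all 1500 windows or 2520 bins were fitted with edgeR 4.0.16 in R 4.3.3 (quasi-likelihood F test, genotype only, all 13 libraries, size factors of DESeq2 1.42.0 on bins, Benjamini-Hochberg over all), which was tested on simulated data. SE is the log2 fold change over the root of F. Levels were compared by 2-sided exact permutation tests. Homology was searched with BLAST 2.17.0. Windows named are those highest in wild-type, lowest and highest in fold change, and called, at each end. The members and lists were chosen with earlier results of these data known. Alternatives were DESeq2, TMM or total-count scaling, 1 mutant and wild-type per fit, a replicate block, other thresholds and filters, medians, distances and replicates left out. The 18S denominator, the right end alone and a wider limit of the rDNA were alternatives chosen after seeing the data.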

Additional observations from a re-analysis of the deposited data

Results flagged for a closer look

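The left flanking window, III:24901-25200, was the only window of the 128 called in the comparisons between mutants above. It was lower in Δprw1 than in Δfkh2 by a log2 difference of -1.06 (edgeR adjusted p = 0.00177). The choice of windows favours this direction, since its mean was 2.71 times the background in Δfkh2 and 1.33 times in Δprw1. Of all windows, 20.3% were lower in this comparison, and DESeq2 did not call the flanking window. The call was also lost without Δfkh2 replicate C, Δprw1 replicate A or Δprw1 replicate C. All 3 Δprw1 libraries (127, 203 and 91.7 normalised read counts) were below all 3 Δfkh2 libraries (227, 215 and 421). Groups of 2 or 3 libraries are too small to look for single libraries that stand apart.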

How the results depend on the processing

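Scaling moved the counts most: with total counts of the bins, the windows that rose were 101 (Δfkh2), 127 (Δprw1), 29 (clr6-1) and 93 (clr3-D232N), and 13, 18 and 80 bins rose in Δfkh2, Δprw1 and clr3-D232N, of 14, 18 and 1965 that rose among all 2520. It also turned the clr6-1 level to -0.047 at 100 to 200 kb on the left and -0.015 at 50 to 100 kb on the right, and called 2 windows lower in Δprw1 and 2 in clr6-1 than in Δfkh2, and 1 higher in clr3-D232N than in clr6-1. DESeq2 called 12 windows in Δprw1, 15 in clr6-1 and 1 bin in Δprw1, and between mutants 0 windows lower in Δprw1 than in Δfkh2 and 4 lower in clr3-D232N than in clr6-1. At an adjusted p below 0.05, 23 windows rose in Δprw1, 23 in clr6-1, and 1 bin in Δprw1. With 1 mutant and wild-type per fit, 31 windows rose in clr6-1 and 1 bin in Δprw1. Without a fold threshold 13, 12, 7 and 26 bins rose in the 4 mutants in the order given and 1 fell in Δprw1. Without the 25% of lowest mean, 0, 0, 2 and 0 windows rose, since both flanking windows are then not tested, and 2 bins in Δfkh2 and 1 in clr3-D232N. With only the windows beyond the rRNA genes, most of them at the inner edge of the array, the left to right difference of clr6-1 was -0.027. Causes were not tested except where stated.

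The labels give replicate letters. The deviations of same-lettered libraries had a median correlation of 0.10 over 22 pairs, 12 of them over 0.1. For pairs with different letters the median was -0.10 over 45 pairs, 18 of them over 0.1. Of 13 libraries, 4 correlated best with their own letter. Deviations within genotypes of so few libraries are tied to each other, so this check cannot decide whether a letter marks a shared batch. With the letter as a replicate block, 13 windows rose in Δprw1 and 14 in clr6-1, 3 were lower in clr3-D232N than in clr6-1, and the clr6-1 and clr3-D232N calls of the bin 25001-30000 were lost (edgeR adjusted p = 0.00904 and 0.00523).

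Leaving out 1 library gave 0 to 10 windows higher in Δprw1, 1 to 2 in clr6-1 and 1 to 2 in clr3-D232N, and 2 to 5, 0 to 3, 2 to 3 and 0 to 3 bins in the 4 mutants. Between mutants it gave 0 to 2 windows lower in Δprw1 than in Δfkh2 and 0 to 1 higher in clr6-1 than in Δprw1. At each end 6 windows lay beyond the rRNA genes, 5 of them at the inner edge of the array. Their level in clr3-D232N relative to wild-type ranged from -0.12 to 0.53 on the left and from -0.26 to 0.43 on the right. Values were below 0 without wild-type replicate C or clr3-D232N replicate A.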

Other observations

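A pair of bins at the right end, chosen after their values were seen, stood above their neighbours. The bin 2365001-2370000, which holds sac32, tmp1 and the meiotically upregulated gene mug9, gave 1.46 and 1.26 times the median bin in wild-type. It gave 1.77, 2.0 and 2.22 in clr3-D232N, and 0.967 to 1.08 in the libraries of the other 3 mutants. The log2 difference from wild-type was 0.57 ± 0.10 in clr3-D232N (edgeR adjusted p = 0.000437) and from -0.37 to -0.44 in the others (edgeR adjusted p 0.00400 to 0.0128), all under the fold threshold. The bin 2320001-2325000, which holds the retrotransposon Tf2-13, gave 1.4 and 1.31 in wild-type, 2.83, 1.58 and 1.44 in clr3-D232N, and 1.87 and 2.60 in clr6-1. The Δfkh2 libraries had 1.20, 1.52 and 1.7, those of Δprw1 had 1.54, 2.26 and 1.25, and 1 library of each lay below both wild-type libraries. It did not pass in any mutant.

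The forkhead motif GTAAACA, searched on both strands, was present in 8 of the 128 windows (6.25%) and in 6.62% of the 1435 windows on chromosomes I, II and III. It was in 3 of the 46 long-spacer windows and in 0 of the 2 flanking windows.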
